A study of Mus musculus with 18 samples.

Results

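Glycogen is the branched glucose polymer in which cells keep glucose, and 9 genes of its synthesis and breakdown were followed here in mouse tail tendon fibroblasts (TFs). They were the rows of the gene count table named *Ugp2*, *Gyg*, *Gys1*, *Gbe1*, *Pygl*, *Pygb*, *Ppp1r3b*, *Ppp1r3c* and *Ppp1r3g*, and all 9 were found among its 55491 rows. The members were chosen by name, with earlier results of these data known. *Ppp1r3g* was included for its rise in 1% O2, so its O2 response is described below without a test.

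RNA was measured in 18 libraries after 4 days of culture, with 3 replicates in each of 6 groups. Cells without Cre are called Ctrl; the labels give them as wild-type, while the study's methods describe Cre-negative *Hif1a* fl/fl animals from the same cross, on a mixed C57BL6J/129S1 background. The cKO TFs were taken from animals carrying *Scx*-Cre, a recombinase driven by a tenogenic gene, and, by the study's methods, floxed on both *Hif1a* alleles. A further arm held Ctrl TFs treated with Cre gesicles, vesicles that bring the recombinase protein into cells, and each arm was kept in 20% or 1% O2. The cells crawled out of tail tendons of adult male and female mice aged 4 to 6 months into collagen gel and were passaged, so that each library is a mixed culture of whatever cells grew. The study's methods give 3 mice per genotype, but the labels tie no library to a mouse, so the p-values measure the spread between these libraries.

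In glycogen synthesis, UDP-glucose pyrophosphorylase (*Ugp2*) makes the activated glucose donor, glycogenin (*Gyg*) builds the primer, glycogen synthase (*Gys1*) lengthens the chains and the branching enzyme (*Gbe1*) adds the branch points. Glycogen phosphorylase releases glucose 1-phosphate from the chain ends, and its liver form (*Pygl*) and brain form (*Pygb*) are made in many tissues besides those they are named for. The subunits encoded by *Ppp1r3b*, *Ppp1r3c* and *Ppp1r3g* bring protein phosphatase 1 to the glycogen particle, where it activates the synthase and inactivates the phosphorylase. Low O2 is known to raise glycogen stores in several cultured cell types, in part through hypoxia-inducible factors, which bind DNA at an ACGTG or GCGTG core.

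The members lie on 9 different chromosomes of GRCm38 and are protein-coding. The bases ahead of the transcription start are shown for the genes on which the results turn, namely *Gbe1*, *Pygl*, *Ppp1r3c* and *Ppp1r3g*, whose levels were higher in 1% O2, and *Pygb*, the phosphorylase gene that was not called. Each stretch holds the 250 bases upstream of the RefSeq start (GRCm38.p6), and capitals mark ACGTG or GCGTG on the strand shown, or CACGT or CACGC where the core is on the other strand. The GENCODE gene begins at the same base for *Gbe1* and further upstream for the others.
*Gbe1*, chr16:70313699-70313948, plus strand: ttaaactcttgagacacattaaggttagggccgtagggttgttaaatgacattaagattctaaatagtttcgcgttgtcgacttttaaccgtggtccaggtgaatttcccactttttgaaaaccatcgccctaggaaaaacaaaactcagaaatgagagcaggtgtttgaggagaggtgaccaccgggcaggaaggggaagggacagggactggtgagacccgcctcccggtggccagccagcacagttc
*Pygl*, chr12:70227684-70227933, minus strand: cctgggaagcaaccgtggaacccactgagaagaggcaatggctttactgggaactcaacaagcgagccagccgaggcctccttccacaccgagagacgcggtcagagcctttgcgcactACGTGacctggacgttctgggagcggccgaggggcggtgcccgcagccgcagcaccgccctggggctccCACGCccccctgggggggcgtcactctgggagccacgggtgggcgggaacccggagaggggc
*Pygb*, chr2:150786546-150786795, plus strand: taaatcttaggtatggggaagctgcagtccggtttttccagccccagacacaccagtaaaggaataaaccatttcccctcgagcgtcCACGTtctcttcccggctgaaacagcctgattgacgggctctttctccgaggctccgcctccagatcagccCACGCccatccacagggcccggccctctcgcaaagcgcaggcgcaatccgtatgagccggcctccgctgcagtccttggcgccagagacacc
*Ppp1r3c*, chr19:36736605-36736854, minus strand: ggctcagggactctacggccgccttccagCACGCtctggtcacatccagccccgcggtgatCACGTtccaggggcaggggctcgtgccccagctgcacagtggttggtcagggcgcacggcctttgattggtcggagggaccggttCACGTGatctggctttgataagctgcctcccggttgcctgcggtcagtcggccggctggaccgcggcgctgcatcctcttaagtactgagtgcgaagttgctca
*Ppp1r3g*, chr13:35967656-35967905, plus strand: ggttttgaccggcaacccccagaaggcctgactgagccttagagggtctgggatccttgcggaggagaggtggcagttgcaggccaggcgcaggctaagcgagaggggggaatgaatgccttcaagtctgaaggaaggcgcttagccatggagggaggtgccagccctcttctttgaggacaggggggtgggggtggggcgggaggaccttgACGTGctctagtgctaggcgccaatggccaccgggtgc

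Of the 9 members, 8 had an upstream sequence in the RefSeq table, with 9 starts because *Ugp2* had more than 1, and *Ppp1r3b* had no entry. A core on either strand was present for 6 of the 8, against 38.6% of the 32851 promoters in the table, and a core with ACGTG for 5, against 16.6% of promoters. *Pygl* held the core 131 and 62 bases before its start and *Pygb* 163 and 92 bases before. *Ppp1r3c* held it at 221 and 189 bases, and at 104 and 103 bases, where the letters CACGTG read the same on both strands. *Ppp1r3g* held it 38 bases before its start, and neither *Gbe1* nor *Gys1* held it in this window. *Gbe1* was called without these letters in the window, and *Pygb* was not called with them. Whether the letters bear on the O2 response was not tested. A match of letters is a description of the sequence and not a binding site.

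Library totals ranged from 6857558 counts, in cKO 1% O2 replicate 1, to 51806453. Levels are given as CPM, counts scaled to library size after TMM normalization, and 3 counts, taken as the smallest value a library can show, corresponded to 0.0579 to 0.437 CPM. Tendon fibroblast markers summed to between 5250 and 14800 CPM, against at most 42.5 CPM for skeletal muscle, 25.4 for macrophages, 76.6 for endothelium, 51.6 for cartilage, 6.97 for adipocytes and 1.10 for keratinocytes. *Hif1a* itself averaged 348 CPM in Ctrl 20%, 420 in Ctrl 1%, 377 in cKO 20% and 443 in cKO 1% O2. It was not called in any comparison, so whole-gene counts of the targeted gene were not lower in the libraries labelled cKO. Such counts do not show whether the floxed part of the gene was lost. By qPCR after a longer culture, the study reported reduced *Hif1a* expression in TFs from cKO mice. Of 10 hypoxia-response genes listed as a check, 8 were called higher in 1% O2 in each of the 3 arms. Of all genes, 1.47% were called higher in Ctrl, 1.40% in cKO and 1.64% in gesicle-treated TFs. The check list was written with earlier results of these data known.

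To compare levels between genes, counts were divided by gene length and scaled to TPM, the length-corrected counterpart of CPM. In Ctrl TFs in 20% O2, *Ugp2* was the most abundant member at 371 ± 91.2 TPM (SD, n = 3). *Gyg* and *Pygb* came next at 91.7 ± 2.92 and 87.8 ± 10.4 TPM and did not differ beyond their spread. *Gys1* lay at 39.4 ± 2.34 and *Gbe1* at 26.9 ± 2.01 TPM. *Ppp1r3b*, *Ppp1r3c* and *Pygl* were low, at 6.52 ± 0.917, 4.93 ± 2.57 and 4.37 ± 1.04 TPM, and *Ppp1r3c* overlapped both of the others. *Ppp1r3g* was close to the limit of detection at 0.0622 ± 0.0753 TPM. In 1% O2 *Gbe1* reached 63.2 ± 1.44 TPM, above *Gys1* at 56.3 ± 4.38 TPM, with no overlap, so that the order of synthase and branching enzyme turned. With the longest transcript as the length, *Pygl* in Ctrl 20% O2 was 7.29 TPM and stood above *Ppp1r3b* at 7.05 TPM, and the order of these low genes thus depends on the length chosen.

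**Figure D1:**
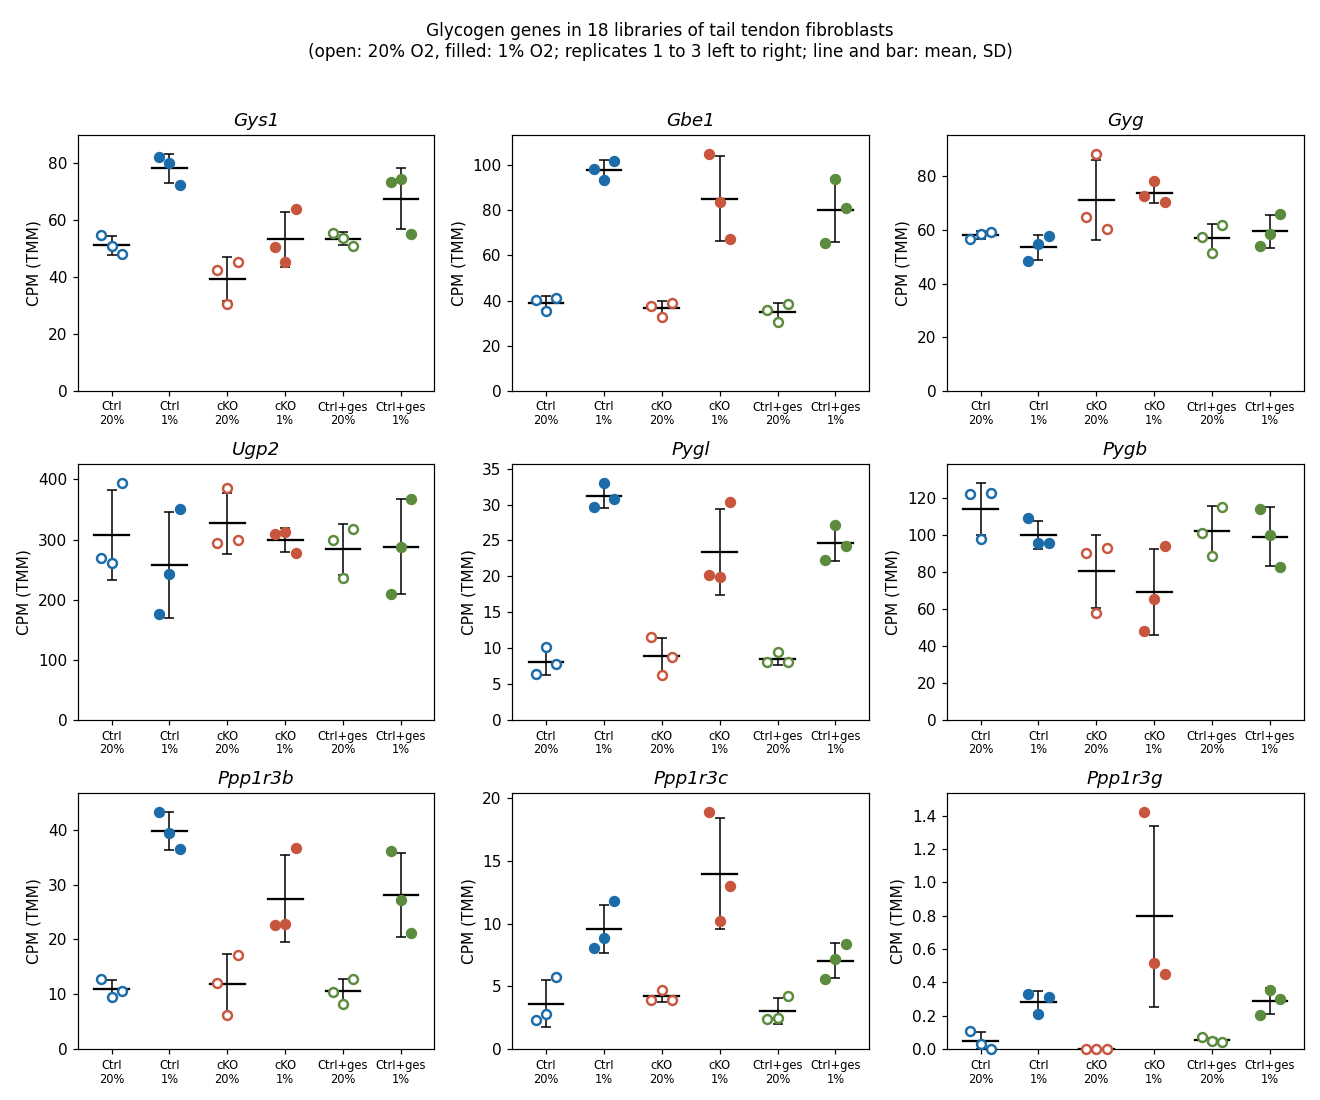
Level of each of the 9 genes in CPM (y axes, linear, from 0) in the 18 libraries by group (x axes; Ctrl+ges, Ctrl TFs with Cre gesicles), with points for replicates 1 to 3, open for 20% and filled for 1% O2, and lines and bars for mean and SD (cut at 0). The filled points lie above the open ones in all 3 arms for *Gbe1*, *Pygl*, *Ppp1r3b*, *Ppp1r3c* and *Ppp1r3g*, whereas *Gyg*, *Ugp2* and *Pygb* overlap.

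The first question was whether 4 days in 1% O2 changed the expression of glycogen genes in Ctrl TFs. The branching enzyme gene, the liver phosphorylase gene and the targeting subunit gene *Ppp1r3b* rose, and none of the members fell. By edgeR's quasi-likelihood test, with a call where the adjusted p (Benjamini-Hochberg over all genes) was below 0.05 and the fold change 1.5 or more, 3 of the 8 members tested were called higher, where 1.47% of the 15850 genes tested were called higher. Of the 8, 0 were called lower, where 0.410% of all genes were, and 5 had an unadjusted p under 0.05, all of them higher. How many of all genes reached that unadjusted threshold was not counted, so these 5 have no background beside them. The median log2 fold change was 0.98 over the 8 members and 0.000196 over all genes. Here and in the other arms these shares and medians describe a list chosen with earlier results known. They do not test it. In Ctrl TFs libraries with the same replicate number deviated together. A fit blocked on that number called 5 members higher, where 271 of the 15850 genes tested were.

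*Gbe1* (chr16:70313949-70569716) had 40.3, 35.5 and 41.2 CPM in Ctrl replicates 1 to 3 in 20% O2 and 98.5, 93.5 and 102 CPM in 1% O2. Every library in 1% O2 was thus above every library in 20% O2, a separation seen in 16.6% of all genes tested. Its log2 fold change was 1.34 (edgeR SE 0.153, adjusted p = 0.000704), or 2.53-fold.

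*Gys1* (chr7:45434844-45456619), the chain-lengthening partner of *Gbe1*, had 54.6, 50.6 and 48 CPM in 20% O2 and 81.9, 79.8 and 72.3 CPM in 1% O2. The groups did not overlap, but the log2 fold change of 0.62 (SE 0.165) was not called, with an edgeR adjusted p of 0.0819. With the replicate block it was 0.618 and was called (edgeR adjusted p = 0.0334). *Gys1* overlaps *Ruvbl2* on the opposite strand, which had 232 to 2142 counts per library, and whether counting used strand is not given in the sources used here.

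The priming and precursor steps did not pass the test. *Gyg* averaged 58.1 ± 1.46 CPM in 20% and 53.5 ± 4.66 CPM in 1% O2 (SD, n = 3), a log2 fold change of -0.11 with a 95% interval from -0.424 to 0.2. *Ugp2* averaged 308 ± 74.9 and 257 ± 88.2 CPM, a log2 fold change of -0.26 with an interval from -0.758 to 0.245. The replicates of *Ugp2* were spread more widely than the O2 groups were apart, with Ctrl replicate 3 the highest at both O2 levels, at 394 and 351 CPM. Same-numbered Ctrl libraries, which were read as pairs, differed in log2 CPM by -0.604, -0.109 and -0.166 for *Ugp2*, by -0.222, -0.102 and -0.042 for *Gyg* and by -0.165, -0.0316 and -0.36 for *Pygb*, the brain-type phosphorylase gene. All 3 genes were thus lower in 1% O2 in each pair, but none was called with the replicate as a block (edgeR adjusted p = 0.3, 0.673 and 0.668).

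*Pygl* (chr12:70190811-70231488) had 6.46, 10.2 and 7.79 CPM in Ctrl 20% O2 and 29.7, 33 and 30.8 CPM in 1% O2. The groups stood far apart, and the log2 fold change was 1.94 (edgeR SE 0.247, adjusted p = 0.00151), or 3.85-fold. *Pygb* (chr2:150786735-150831758), the more abundant phosphorylase gene, averaged 114 ± 14.1 CPM in 20% and 100 ± 7.48 CPM in 1% O2. The log2 fold change of *Pygb* was -0.18, with an interval from -0.678 to 0.311.

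The *Pygl* share of the phosphorylase transcripts was higher in 1% O2. Per length, *Pygl* held 3.55%, 6.75% and 4.20% of the summed *Pygl*, *Pygb* and *Pygm* transcripts in Ctrl replicates 1 to 3 in 20% O2 and 16%, 19.2% and 18.2% in 1% O2. The sum was 92.6 ± 9.81 TPM in 20% and 88 ± 4.87 TPM in 1% O2 (SD, n = 3). The muscle form *Pygm* held at most 1.07% in these libraries. With longest-transcript lengths the mean *Pygl* share was 8.27% and 27.8%, so the size of the share depends on the length chosen but its direction does not.

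The targeting subunit gene *Ppp1r3b* (chr8:35375739-35388139) had 12.8, 9.56 and 10.6 CPM in Ctrl 20% O2 and 43.2, 39.4 and 36.4 CPM in 1% O2. Its log2 fold change was 1.86 (edgeR SE 0.308, adjusted p = 0.00892), or 3.63-fold, and the adjusted p was 0.0513 without Ctrl 20% replicate 2 and 0.0504 without replicate 3. *Ppp1r3c* (chr19:36731731-36736653), also called protein targeting to glycogen, had 2.28, 2.83 and 5.78 CPM in 20% O2 and 8.09, 8.88 and 11.8 CPM in 1% O2. Its groups did not overlap, but Ctrl 20% replicate 3 was high, and the log2 fold change of 1.41 (SE 0.335) was not called (edgeR adjusted p = 0.0538). The value was 1.5 with the replicate block (edgeR adjusted p = 0.025) and 1.91 without that library (edgeR adjusted p = 0.0141). Of the 6 fits that each left out 1 library, only that one gave a call. In the others *Ppp1r3c* stayed uncalled, with log2 fold changes down to 1.16 and edgeR adjusted p-values up to 0.216.

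*Ppp1r3g* (chr13:35958839-35970388) was counted only a few times per library. The counts were 4, 1 and 0 in Ctrl replicates 1 to 3 in 20% O2 and 12, 7 and 12 in 1% O2. In cKO TFs they were 0, 0 and 0 in 20% O2 and 10, 18 and 18 in 1% O2, and in gesicle-treated TFs 3, 2 and 2 in 20% and 7, 11 and 10 in 1% O2. The counts in 1% O2 were thus above those in 20% O2 in all 3 arms, which is the property the gene was selected on. Scaled to library size, the ratio of the summed counts was 5.95 in Ctrl and 5.6 in gesicle-treated TFs. For cKO TFs, with counts of 0 in 20% O2, another measure was used, namely the mean CPM in 1% O2 over a mean floor of 3 counts per library. It gave a bound of at least 9.49-fold, which cannot be set beside the ratios of summed counts. The mean was raised by the shallowest library, at 1.42 CPM against 0.518 and 0.45 CPM. Without Ctrl 20% replicate 1 the Ctrl ratio was 19.1, and without cKO 1% replicate 1, the shallowest library, the cKO bound was 5.77. The gene passed the filter on low counts only through the groups in 1% O2, and these ratios are descriptions given without an interval.

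Summed over the genes *Ppp1r3a* to *Ppp1r3g*, transcripts of the targeting subunits were 20.8, 17.9 and 23.4 TPM in Ctrl 20% O2 and 46, 43.1 and 45.4 TPM in 1% O2. *Ppp1r3b* held 31.8 ± 4.53% of the sum in 20% and 49.1 ± 4.77% in 1% O2. *Ppp1r3d*, a subunit gene outside the members, held 36.6 ± 3.5% and 16.7 ± 1.52%, with 6.65 ± 0.473 and 7.11 ± 0.997 CPM. *Ppp1r3g* held at most 0.918% in Ctrl libraries. With longest-transcript lengths *Ppp1r3b* held 39.3% and *Ppp1r3d* 32% in 20% O2, so which of them came first there depends on the length chosen, and *Ppp1r3b* came first in 1% O2 by both lengths.

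**Figure D2:**
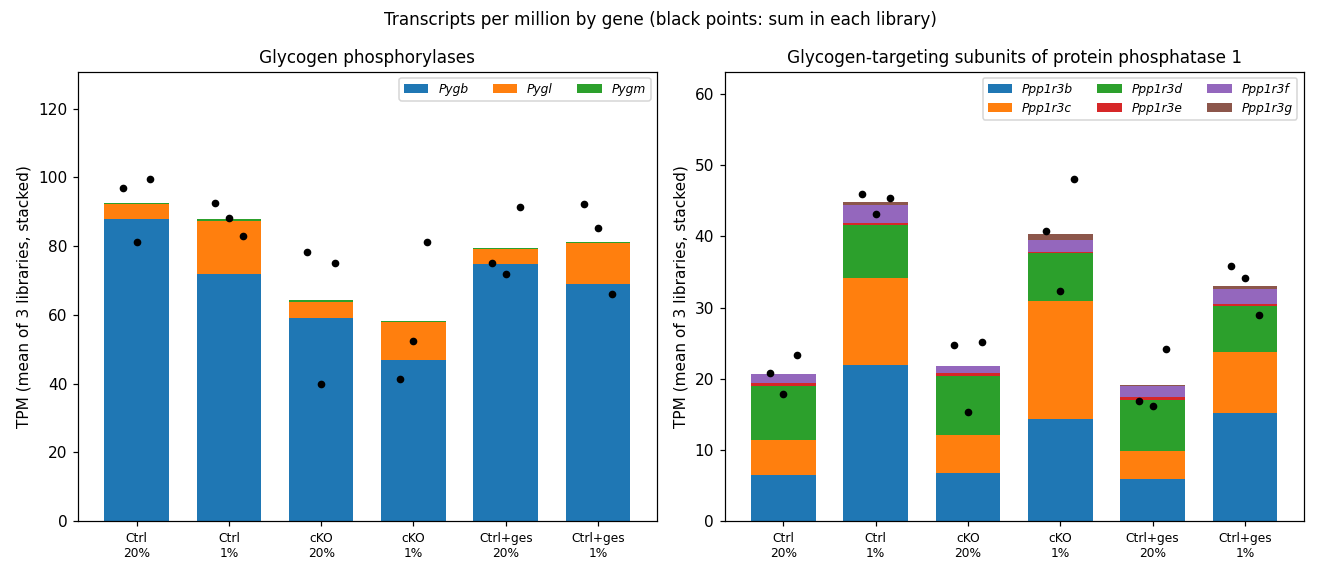
Stacked bars of mean TPM (y axes, linear, from 0; n = 3 libraries) for the phosphorylase genes (left) and the targeting subunit genes (right) in each group, with a black point for the sum in each library. The phosphorylase sum stays near 92.6 and 88 TPM in Ctrl while the *Pygl* part grows, and the targeting subunit sum goes from 20.7 to 44.9 TPM in Ctrl; *Ppp1r3a*, at or near 0, is not drawn.

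The same contrast in the libraries labelled cKO asks whether these genes answered 1% O2 in TFs from *Hif1a* cKO mice. *Gbe1*, *Pygl* and *Ppp1r3c* rose, so 3 of the 8 members were called higher, where 1.40% of all genes were, and 0 were called lower, where 0.700% were. At an unadjusted p under 0.05 there were 5, all higher, with no count over all genes to set beside them. The median log2 fold change was 0.84 over the 8 members and -0.03 over all genes.

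*Gbe1* had 37.7, 32.8 and 39 CPM in cKO 20% O2 and 105, 83.6 and 67.2 CPM in 1% O2. The groups did not overlap, as in 10.5% of all genes, and the log2 fold change was 1.23 (edgeR SE 0.153, adjusted p = 0.00187). *Pygl* had 11.5, 6.29 and 8.81 CPM in 20% O2 and 20.2, 19.9 and 30.3 CPM in 1% O2, with a log2 fold change of 1.42 (edgeR SE 0.245, adjusted p = 0.0124). Without cKO 20% replicate 3 its adjusted p was 0.0647. The share of *Pygl* among phosphorylase transcripts per length was 7.07 ± 0.953% in 20% and 19.3 ± 2.54% in 1% O2.

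*Ppp1r3c* had 3.94, 4.71 and 3.94 CPM in cKO 20% O2 and 18.9, 10.2 and 13 CPM in 1% O2. The highest value was that of the shallowest library, and the log2 fold change was 1.73 (edgeR SE 0.338, adjusted p = 0.0243) with it and 1.49 (adjusted p = 0.0823) without it. The call was also lost without cKO 20% replicate 1 (adjusted p = 0.0865) or 3 (adjusted p = 0.106), or without cKO 1% replicate 3 (adjusted p = 0.052). *Ppp1r3b* had 12, 6.21 and 17.1 CPM in 20% O2 and 22.7, 22.8 and 36.6 CPM in 1% O2, and its log2 fold change of 1.23 (SE 0.305) was not called (edgeR adjusted p = 0.0575). Leaving out cKO 20% replicate 2 or 3 gave a call (adjusted p = 0.03 and 0.0438). Leaving out any other library of these groups gave none, with edgeR adjusted p-values up to 0.145. *Gys1* averaged 39.2 ± 7.86 CPM in 20% and 53.1 ± 9.71 CPM in 1% O2 (edgeR adjusted p = 0.169), and the lowest library in 1% O2 and the highest in 20% O2 both stood at 45.1 CPM.

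*Gyg*, *Ugp2* and *Pygb* were not called in cKO TFs, with log2 fold changes of 0.06, -0.12 and -0.20. *Pygb* had its lowest value, 48.3 CPM, in cKO 1% replicate 1. The summed targeting subunits came to 21.8 ± 5.6 TPM in 20% and 40.4 ± 7.87 TPM in 1% O2, and *Ppp1r3c* held 41.1 ± 10.7% of them in 1% O2, more than *Ppp1r3b* at 35.1 ± 6.63%, but with longest-transcript lengths *Ppp1r3b* came first, at 43% against 35.8%.

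In gesicle-treated Ctrl TFs, fitted with all 18 libraries, *Gbe1*, *Pygl* and *Ppp1r3b* rose in 1% O2. These were 3 of the 8 members, where 1.64% of 16174 genes were called higher, and 0 were called lower, where 0.767% were. At an unadjusted p under 0.05 there were 4, all higher, with no count over all genes to set beside them. The median log2 fold change was 0.77 over the 8 members and -0.02 over all genes.

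*Gbe1* had 35.7, 30.5 and 38.5 CPM in 20% O2 and 65.4, 94 and 80.9 CPM in 1% O2, with a log2 fold change of 1.20 (edgeR SE 0.160, adjusted p = 0.00067). *Pygl* had 8.04, 9.41 and 8.05 CPM in 20% O2 and 22.3, 27.2 and 24.3 CPM in 1% O2, with a log2 fold change of 1.53 (edgeR SE 0.220, adjusted p = 0.00115). Neither gene's groups overlapped, as in 13.0% of all genes.

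*Ppp1r3b* had 10.4, 8.19 and 12.8 CPM in 20% O2 and 36.2, 27.1 and 21.1 CPM in 1% O2, with a log2 fold change of 1.43 (edgeR SE 0.306, adjusted p = 0.0195). This call was lost without replicate 1 or 2 at either O2 level, with adjusted p-values of 0.0589 and 0.12 for the 20% O2 libraries and 0.0699 and 0.0548 for the 1% O2 libraries. *Ppp1r3c* had 2.39, 2.49 and 4.22 CPM in 20% O2 and 5.57, 7.15 and 8.39 CPM in 1% O2, and its log2 fold change of 1.21 (SE 0.332) was not called (edgeR adjusted p = 0.0616). *Gys1*, *Gyg*, *Ugp2* and *Pygb* were not called, with log2 fold changes from -0.04 to 0.34.

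**Figure D3:**
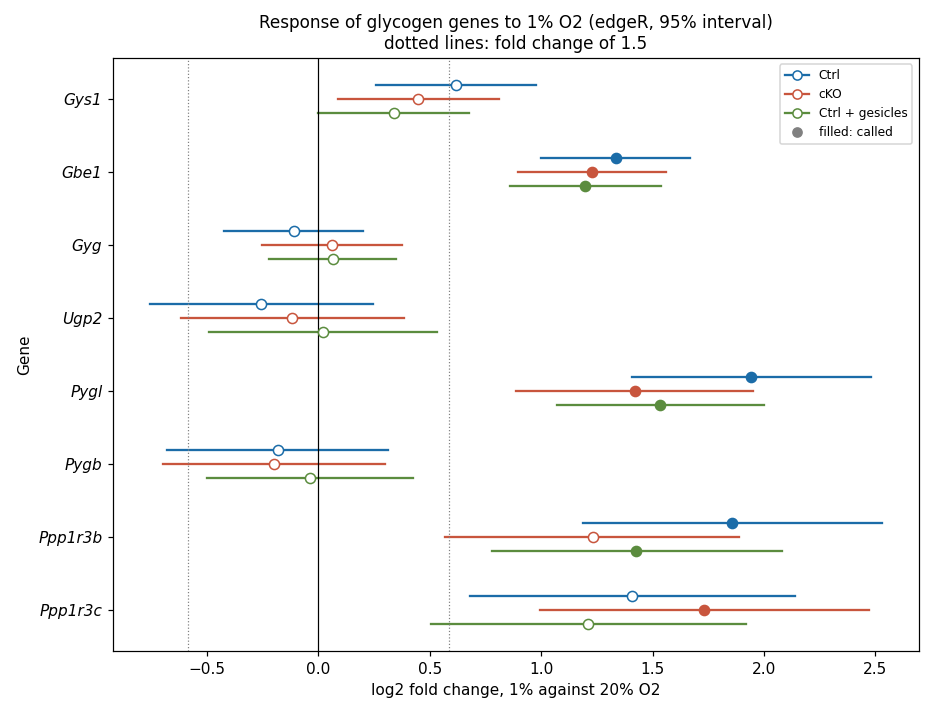
Log2 fold change of 1% against 20% O2 (x axis) for 8 members (y axis) in Ctrl, cKO and gesicle-treated TFs, as points with 95% intervals from edgeR, filled where called; *Ppp1r3g*, selected on this contrast, is left out. *Gbe1*, *Pygl*, *Ppp1r3b* and *Ppp1r3c* lie to the right of 0 in all 3 arms, from 1.20 to 1.94, and *Gyg*, *Ugp2* and *Pygb* span 0.

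Whether the O2 response differed between arms was tested directly by the interaction. For cKO minus Ctrl, 0 of the 8 members were called by edgeR, where 0% of all genes were, 0 had an unadjusted p under 0.05, and DESeq2 called 0 of them. The largest differences were -0.63 for *Ppp1r3b* (95% interval -1.55 to 0.295) and -0.52 for *Pygl* (-1.26 to 0.216), and that for *Gbe1* was -0.11 (-0.571 to 0.358). *Ppp1r3c* had the opposite sign, with a difference of 0.32 (-0.695 to 1.34). The intervals thus leave room for a response of *Ppp1r3b* or *Pygl* in cKO TFs that is smaller by more than 2-fold, and equally for one that is not smaller. For gesicles minus Ctrl, likewise 0 of the 8 were called, where 0% of all genes were, with 0 at an unadjusted p under 0.05 and 0 by DESeq2. The differences ran from -0.43 for *Ppp1r3b* to 0.28 for *Ugp2*. Both comparisons use the same Ctrl libraries.

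At the same O2 level, no member was called between cKO and Ctrl TFs. In 20% O2 edgeR called 0 of the 8 members other than *Ppp1r3g*, where 0.347% of all genes were called either way, and DESeq2 called 0. In 1% O2 edgeR again called 0, where 0.0379% of all genes were called, and DESeq2 called 0. Without *Ppp1r3g*, whose counts were too few, 2 of 8 members had an unadjusted p under 0.05 in 20% and 3 in 1% O2. All genes were not counted at that threshold, so this is no result about the members in particular. The median log2 fold change over these 8 was 0.09 in 20% and -0.31 in 1% O2, against 0.03 and 0.003 over all genes.

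*Gys1* in every cKO library was below every Ctrl library of the same O2 level, at 42.2, 30.3 and 45.1 CPM in cKO 20% and 50.3, 45.1 and 63.9 CPM in cKO 1% O2. Its log2 fold change was -0.39 in 20% (edgeR SE 0.165, adjusted p = 0.329) and -0.56 in 1% O2 (SE 0.165, adjusted p = 0.207). *Pygb* in cKO TFs was likewise below every Ctrl library at both levels, with 90.4, 57.6 and 93.2 CPM in cKO 20% and 48.3, 65.3 and 94 CPM in cKO 1% O2, the last of them close to the lowest Ctrl 1% library at 95.7 CPM. The log2 fold change was -0.51 (SE 0.228, adjusted p = 0.34) and -0.53 (SE 0.229, adjusted p = 0.282). Such a separation below Ctrl was seen in 10.3% of all genes in 20% and 15.2% in 1% O2.

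*Gyg* was the one member above Ctrl in all cKO libraries at both levels, with 64.7, 88.3 and 60.4 CPM in cKO 20% and 72.8, 78.1 and 70.5 CPM in cKO 1% O2, a separation seen in 10.8% and 12.1% of all genes. The difference on the log2 scale was 0.29 (SE 0.143, adjusted p = 0.374) and 0.46 (SE 0.144, adjusted p = 0.213). *Gbe1* and *Ugp2* had log2 fold changes between these arms from -0.21 to 0.22. *Pygl*, *Ppp1r3b* and *Ppp1r3c* ranged from 0.10 to 0.21 in 20% O2, and were -0.41, -0.53 and 0.53 in 1% O2. *Ppp1r3g* had 5 counts in all of Ctrl 20% and 0 in cKO 20% O2, too few to compare. In 1% O2 it had 31 counts in Ctrl and 46 in the shallower cKO libraries, a ratio of 1.97. By library this was 0.331, 0.208 and 0.311 CPM in Ctrl and 1.42, 0.518 and 0.45 CPM in cKO TFs. The gene passed the filter on low counts only through the groups in 1% O2, so the ratio is a description without a test.

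Marker sums also differed between these arms. Tendon fibroblast markers came to 5250 to 10300 CPM in cKO 20% and 11100 to 13200 CPM in Ctrl 20% O2, and in 1% O2 to 5570 to 9390 and 5780 to 13400 CPM, which overlapped. The markers did not move together, as the mean of *Col1a1* was 2870 CPM in cKO and 6330 CPM in Ctrl 20% O2, whereas that of *Dcn* was 827 and 212 CPM and that of *Tnmd* 73.9 and 40.9 CPM. Skeletal muscle markers came in 20% O2 to 9.68 to 15.6 in cKO and 22.4 to 42.5 CPM in Ctrl, with 4 of the 7 muscle markers at 3 counts or fewer in every library of each group, *Ckm* at 0 in all of them, and nearly the whole sum from *Acta1*. In 1% O2 muscle markers came to 17.3 to 20.2 CPM in cKO and 24.2 to 30.5 CPM in Ctrl. Their part in the values of *Gys1*, *Pygb* and *Gyg* was not tested, and in bulk RNA fewer cells of a type and less RNA per cell cannot be told apart. Along O2, endothelial markers were 27.9 to 45.5 CPM in Ctrl 20% and 11.5 to 27.6 CPM in Ctrl 1% O2, nearly all of it from *Tek*, at a mean of 36.8 and 19.1 CPM. *Pecam1*, *Cdh5* and *Kdr* each had a mean under 0.4 CPM in these groups. Adipocyte markers came to 1.53 to 3.22 and 2.98 to 4.46 CPM in the same groups, with 3 of the 4 adipocyte markers at 3 counts or fewer in every library of each group, *Plin1* at 0 in these Ctrl libraries, and nearly the whole sum from *Fabp4*. Their part in the O2 responses was not tested.

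Against untreated Ctrl TFs, gesicle treatment gave no called member either. Without *Ppp1r3g*, edgeR called 0 of 8 in 20% O2, where 0.0247% of all genes were called, and 0 of 8 in 1% O2, where 0% were. At both levels 0 members had an unadjusted p under 0.05 and DESeq2 called 0. The log2 fold changes of these 8 ran from -0.25 to 0.06 in 20% O2 and from -0.50 to 0.17 in 1% O2. The lowest in 1% O2 was that of *Ppp1r3b*, at -0.50 (95% interval -1.13 to 0.14). *Pygl* had -0.34 there (-0.797 to 0.112), and both intervals, from the fit without the replicate block, held 0. With the block the values were -0.5 and -0.336, and neither was called. For both genes every gesicle-treated library was below every Ctrl library in 1% O2. How many of all genes separated in this way was not counted. Of the 10 hypoxia-response genes, 10 were lower than in Ctrl TFs in 1% O2 and 0 were called. Their median log2 fold change was -0.497, against -0.00824 over all genes.

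**Figure D4:**
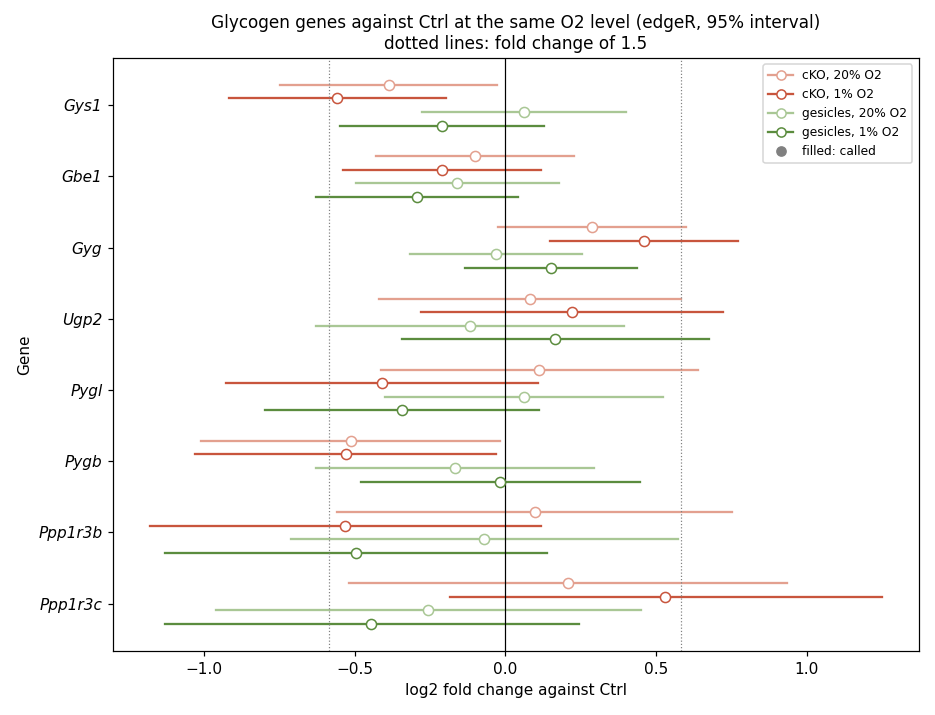
Log2 fold change against Ctrl TFs at the same O2 level (x axis) for 8 members (y axis) in cKO and gesicle-treated TFs, as points with 95% intervals from edgeR; dotted lines mark a fold change of 1.5. No point is filled, since no member was called; *Gys1* and *Pygb* in cKO TFs lie between -0.39 and -0.56, and *Ppp1r3g* is left out because its counts are near 0.

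The other genes of the pathway were taken from a list of 27, of which 25 were tested and *Gys2* and *Ppp1r3a* were too low. This list too was written with earlier results of these data known. In Ctrl TFs 3 of the 25 were called higher in 1% O2 and 0 lower, against 1.47% and 0.410% of all genes. *Pgm1*, phosphoglucomutase, which interconverts glucose 1-phosphate and glucose 6-phosphate, had 86.5, 80 and 81.8 CPM in 20% and 201, 151 and 164 CPM in 1% O2, a log2 fold change of 1.06 (edgeR adjusted p = 0.00149). *Ppp1r3f*, a further targeting subunit gene, had a log2 fold change of 1.16 (edgeR adjusted p = 0.045). *Nhlrc1*, which encodes malin, a ubiquitin ligase that acts on glycogen-bound proteins, had one of 0.94 (edgeR adjusted p = 0.0332). In cKO and in gesicle-treated TFs, 1 of the 25 was called higher and 0 lower, against 1.40% and 1.64% of all genes called higher and 0.700% and 0.767% called lower. The gene was *Pgm1* in both, with log2 fold changes of 0.66 (edgeR adjusted p = 0.0283) and 0.63 (edgeR adjusted p = 0.00817).

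The list's median log2 fold change was 0.10 in Ctrl, -0.13 in cKO and 0.15 in gesicle-treated TFs, against 0.0002, -0.03 and -0.02 over all genes. Between cKO and Ctrl TFs edgeR called 0 of the 25 at either O2 level, where 0.347% of all genes were called in 20% and 0.0379% in 1% O2. At an unadjusted p under 0.05 there were 5 in 20% and 4 in 1% O2, and all genes were not counted at that threshold.

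Over the 18 libraries the genes whose log2 CPM ran most like *Gbe1* were *Slc16a3* (Pearson r = 0.966), *Bnip3* (0.965) and *Ndrg2* (0.962). For *Gys1* they were *Slc38a2* (0.935), *Man1a2* (0.919) and *B3galnt2* (0.918), and for *Ppp1r3c* *Enpp2* (0.947), *AC160336.1* (0.932) and *Gpr35* (0.929). For *Ppp1r3g* they were *Srprb* (0.934), *Nat14* (0.923) and *Cnot7* (0.922), with few counts behind the values. Among the members themselves r was 0.916 for *Pygl* and *Ppp1r3b*, 0.913 for *Gbe1* and *Pygl*, and 0.862 for *Gbe1* and *Ppp1r3c*. *Gyg* and *Pygb* ran opposite to each other (r = -0.746), as did *Gyg* and *Gys1* (r = -0.71). These points share their O2 groups and cultures, and the correlations are given as descriptions.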

How the data were processed

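Libraries were prepared from poly-A RNA of cultured TFs. The authors trimmed the reads with cutadapt, mapped them to GRCm38 with STAR and assigned them to genes with RSEM 1.3.3, and they deposited expected counts as whole numbers, without normalization. Labels give 10% serum in the medium and the study's methods another value, which was not used.

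After TMM normalization and filterByExpr, edgeR 4.0.16 in R 4.3.3 tested the counts by its quasi-likelihood F test, with a coefficient for each group and Benjamini-Hochberg adjustment over all genes. The 12 libraries of Ctrl and cKO TFs made up the first fit (15850 genes), and all 18 the fit for gesicle comparisons (16174 genes). Each standard error is the size of the log2 fold change over the root of F, and 95% intervals use the fit's degrees of freedom. TPM used exon-union lengths (GENCODE M21) or, as an alternative, the longest transcript. The members, the pathway list and the marker lists were chosen with earlier results of these data known. Named genes were the members, pathway genes called in a comparison, *Hif1a*, and the 3 genes most correlated with each of *Gys1*, *Gbe1*, *Ppp1r3c* and *Ppp1r3g* (log2 CPM, prior count 2).

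Same-numbered libraries deviated together for O2 in Ctrl (residual r 0.271, 0.3 and 0.458) and for gesicles against Ctrl in 20% (0.346, 0.462 and 0.405) and 1% O2 (0.262, 0.193 and 0.284), so the numbers were read as pairs there. No 2 replicates were copies, as chi-square per degree of freedom between them was at least 33.6. Alternatives were RLE size factors, no filter, DESeq2 1.42.0, the replicate block, other libraries in the fit, no fold change minimum, and each library left out. Ratios of *Ppp1r3g* counts are given without an interval.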

Additional observations from a re-analysis of the deposited data

How the results depend on the processing

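Of 921 combinations of member, comparison and alternative setting, 841 kept the direction and the side of the threshold. A call was lost in 11 and gained in 17, and 52 turned the sign, 2 of them for a value over 0.25 in size. Many of these combinations come from the same fits. *Gbe1* was called higher in 1% O2 in all 3 arms under every alternative run. In Ctrl TFs 5 members were called with DESeq2, 5 with the replicate block and 5 with all 18 libraries in the fit, in place of 3, the added genes being *Gys1* and *Ppp1r3c*. Over all genes these settings called 440 of 15382, 271 of 15850 and 325 of 16174 higher, against 233 of 15850 in the main fit. *Gys1* had adjusted p-values of 0.0317, 0.0334 and 0.0487 under these, and *Ppp1r3c* 0.00216, 0.025 and 0.0295, and 0.0116 with no filter on low counts. *Ppp1r3b* in cKO TFs was called with DESeq2 (adjusted p = 0.00405), the block (0.0139), all 18 libraries (0.0358) and no filter (0.0113), and *Ppp1r3c* in gesicle-treated TFs with DESeq2 (0.01), the block (0.0263) and no filter (0.045). The cause was not tested.

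For the O2 response in cKO TFs, where residual correlations of same-numbered libraries were 0.0956, 0.0921 and 0.368, in gesicle-treated TFs (0.0417, 0.216 and -0.00612) and for cKO against Ctrl TFs in 20% (-0.149, -0.0407 and -0.104) and 1% O2 (0.0931, 0.218 and -5.22e-05), the libraries share only a number. As a hint from the data, 4 of 6 libraries correlated best with their own number in cKO TFs, 2 in gesicle-treated TFs and 0 and 4 between cKO and Ctrl TFs. The block raised the members called from 3 to 4 in each of these O2 responses. Over all genes it called 286 of 15850 higher in cKO and 319 of 16174 in gesicle-treated TFs. The block changed no other call beside those named. It gave -0.00475 for *Ugp2* in gesicle-treated TFs in place of 0.02. The difference in O2 response of *Pygb* between cKO and Ctrl TFs was 0.00803 with RLE size factors and 0.00464 with DESeq2, in place of -0.02. Over all genes, DESeq2 called 440 higher and 252 lower in Ctrl TFs in 1% O2, 474 and 414 in cKO TFs and 436 and 295 in gesicle-treated TFs, against 233 and 65, 222 and 111, and 266 and 124 by edgeR. Between cKO and Ctrl TFs it called 158 higher and 276 lower in 20% and 91 and 194 in 1% O2, against 55 and 6 in all by edgeR. With no filter 103 and 178, and 35 and 76, were called, and with all 18 libraries 43 and 44, and 9 and 5. No setting called a member there. No filter gave 299 higher and 212 lower in cKO TFs in 1% O2. For gesicles against Ctrl in 20% O2, edgeR called 4, DESeq2 42 higher and 4 lower, no filter 22 and 1, and the block and the fit without cKO libraries 1 each. The block called 2 for cKO against Ctrl TFs in 1% O2. DESeq2 called 2 genes for the difference in O2 response between cKO and Ctrl TFs, and the fit without cKO libraries 1 for that of gesicle-treated TFs, where edgeR called 0.

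Leaving out 1 library at a time gave 2 to 3 members called in Ctrl, 2 to 4 in cKO and 2 to 3 in gesicle-treated TFs in 1% O2. Values near 0 changed sign in some of these fits. For 1% against 20% O2 in cKO TFs these ran from -0.0442 to 0.262 for *Gyg*, -0.191 to 0.0337 for *Ugp2* and -0.474 to 0.0109 for *Pygb*. In gesicle-treated TFs they ran from -0.0444 to 0.131 for *Gyg*, -0.218 to 0.209 for *Ugp2* and -0.157 to 0.0604 for *Pygb*. For cKO against Ctrl TFs in 20% O2 they ran from -0.0678 to 0.294 for *Ugp2*, -0.11 to 0.307 for *Pygl*, -0.287 to 0.392 for *Ppp1r3b* and -0.0424 to 0.707 for *Ppp1r3c*. For the difference in O2 response between cKO and Ctrl TFs they ran from -0.254 to 0.0603 for *Gbe1*, -0.0774 to 0.455 for *Ugp2*, -0.28 to 0.204 for *Pygb* and -0.181 to 0.57 for *Ppp1r3c*. For gesicles against Ctrl in 20% O2 they ran from -0.0965 to 0.0395 for *Gyg*, -0.235 to 0.0832 for *Ugp2*, -0.0872 to 0.244 for *Pygl*, -0.243 to 0.0809 for *Ppp1r3b*, -0.57 to 0.234 for *Ppp1r3c* and -0.443 to 1.55 for *Ppp1r3g*. For gesicles against Ctrl in 1% O2 they ran from -0.045 to 0.479 for *Ugp2*, -0.11 to 0.0996 for *Pygb* and -0.152 to 0.226 for *Ppp1r3g*. For the difference in O2 response between gesicle-treated and Ctrl TFs they ran from -0.224 to 0.0305 for *Gbe1* and -0.66 to 0.126 for *Ppp1r3c*. The shallowest library limits *Ppp1r3g* and *Ppp1r3c* in cKO TFs.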

Other observations

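Some of the other glycogen genes had larger values between cKO and Ctrl TFs than any member but *Ppp1r3g*, although none was called, and these were chosen after their values were seen. *Stbd1*, which encodes a protein that tethers glycogen to membranes, had 46.7, 37.6 and 42.1 CPM in Ctrl and 16.1, 24.7 and 22.4 CPM in cKO TFs in 20% O2. The log2 fold change was -1.002 (edgeR SE 0.225, adjusted p = 0.098), and the groups did not overlap. In 1% O2 the same gene had 26.2, 40.2 and 36.2 CPM in Ctrl and 20.5, 33.4 and 32.9 CPM in cKO TFs, which overlapped.

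*Phka1*, a regulatory subunit gene of phosphorylase kinase, had 17.2, 22.6 and 19.4 CPM in Ctrl and 5.26, 10.4 and 14.1 CPM in cKO TFs in 1% O2, a log2 fold change of -0.95 (edgeR SE 0.309, adjusted p = 0.22). Its lowest value was that of cKO 1% replicate 1, the shallowest library.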
